A study of Ovis aries with 6 samples.

Results

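IGFBP5 and SULF2 are 2 genes whose products act on growth factors outside the cell, and they are described here among the 1620 genes of a deposited RNA-seq table from Hu sheep (Ovis aries) granulosa cells. Both were picked by name with this table's comparison already known, and the table holds only genes that the authors called changed, so the levels of the pair in siINHBA and siNC are a description and carry no test. The siINHBA group comprised 3 libraries of primary granulosa cells transfected with a small interfering RNA against INHBA, the gene of the inhibin and activin beta A subunit, and the siNC group 3 libraries of the same kind of cells given a negative control. In both groups the cells had been aspirated from follicles of at least 3 mm in slaughterhouse ovaries of sexually mature sheep, transfected by lipofection, and harvested for RNA after 24 h. The number of ewes behind a library is not stated in the labels, and nothing there says that the 3 libraries of a group were separate cultures, so the spread between them may be technical.

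Insulin-like growth factors (IGFs) drive granulosa cell growth and steroid synthesis together with follicle-stimulating hormone. IGF-binding proteins hold IGFs in the fluid around the cells and so limit how much reaches the IGF receptor. IGFBP5 is one of these binding proteins, it also sticks to heparan sulphate and matrix, and in several mammals its transcript is known from granulosa cells of atretic follicles. Heparan sulphate chains on cell-surface and matrix proteins likewise bind fibroblast growth factors, Wnts and other ligands. SULF2 is an extracellular sulphatase that removes sulphate from the 6-O position of glucosamine in finished heparan sulphate chains, which changes which ligands the chains hold.

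The table counts summed to between 1590871 and 2042924 per siINHBA library and between 2781548 and 2948524 per siNC library. Relative depth over all mapped reads, worked out from each gene's count divided by its FPKM (fragments per kilobase of transcript, scaled to the mapped total), ran from 0.952 to 1.17 of that of siNC 1. INHBA, the siRNA target, had 1536, 1366 and 1327 counts in siINHBA libraries 1 to 3, against 3784, 4037 and 3903 in siNC libraries 1 to 3. Its mean FPKM in siINHBA was 35.9% of that in siNC. Of the granulosa markers FOXL2, AMH, FSHR, CYP19A1, INHA, INHBA, INHBB, FST, NR5A2, HSD17B1 and AMHR2, only INHA, INHBA and HSD17B1 had a value, above 0 in all 6 libraries. Values of these 3 of 11 show that the transcripts were present and do not settle the cell type. INHA and INHBA were lower in siINHBA, at log2 fold changes of -1.79 and -1.49, and HSD17B1 was higher, at 1.41.

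IGFBP5 was among the most abundant transcripts of the table and was much lower after INHBA siRNA. It had 171.6, 257.1 and 249.0 FPKM in siINHBA libraries 1, 2 and 3, against 1072.4, 1129.5 and 1011.2 FPKM in siNC libraries 1, 2 and 3. The groups did not overlap, as for 65.6% of the table's genes in this direction, and siINHBA 1 stood below the other siINHBA libraries. In bulk samples such as these, fewer cells of a type and less RNA per cell cannot be told apart. The underlying counts were 35588, 57779 and 63587 in siINHBA and 229394, 247991 and 227668 in siNC, so counting error was small beside the spread between libraries. The mean was 226 ± 47.2 FPKM in siINHBA and 1071 ± 59.2 FPKM in siNC (SD, n = 3 each), a siINHBA level of 21.1% of the siNC level. The fitted log2 fold change was -2.22 (SE 0.16). The authors' deposited table gives -2.21.

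SULF2 was a transcript of moderate abundance and was lower by a larger factor. It had 1.04, 1.24 and 1.24 FPKM in siINHBA libraries 1, 2 and 3, against 11.13, 11.25 and 11.31 FPKM in siNC libraries 1, 2 and 3. The groups were far apart and the siNC libraries almost equal. The counts were 133, 169 and 185 in siINHBA and 1419, 1506 and 1528 in siNC. The mean was 1.17 ± 0.113 FPKM in siINHBA and 11.2 ± 0.0947 FPKM in siNC (SD, n = 3 each), leaving 10.5% of the siNC level. The fitted log2 fold change was -3.24 (SE 0.13), and the authors' deposited table gives -3.22. Genes called lower made up 65.7% of the table, so a lower level alone does not set the pair apart.

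**Figure D1:**
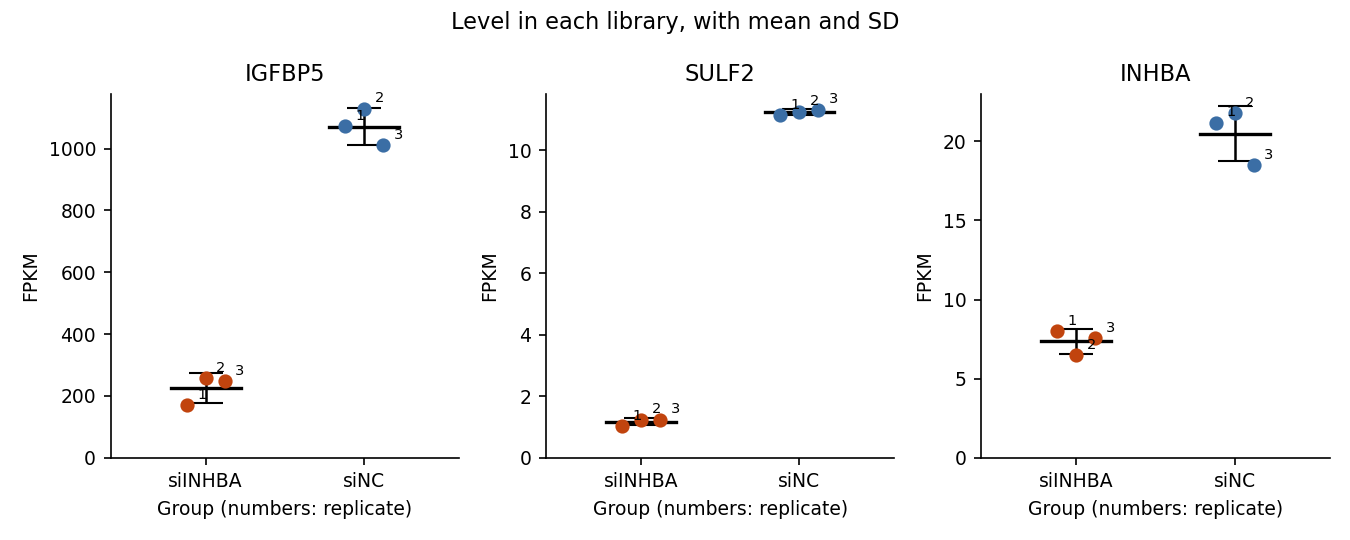
FPKM of IGFBP5, SULF2 and the siRNA target INHBA in each library, siINHBA on the left and siNC on the right of each panel. Points are libraries with their replicate number, the thick line is the mean and the bar the SD (n = 3). The siINHBA points lie below all siNC points in each panel, with means of 21.1%, 10.5% and 35.9% of the siNC mean.

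The pair differed in how the change showed in the table as a whole. IGFBP5 ranked second of 1620 genes by mean FPKM in siNC and 13th in siINHBA, and its fall of 845.1 in mean FPKM was the largest of any gene listed. Its reads made up 2.81% ± 0.493 of the table counts in siINHBA and 8.17% ± 0.285 in siNC (SD, n = 3 each). Of the summed loss of depth-scaled counts over the 1065 genes that were lower, IGFBP5 alone made up 11.3%. By fold change, however, it ranked only 116 from the lowest. SULF2 had the reverse profile, with a rank of 10 from the lowest by fold change, a rank of 386 by siNC level and 1050 by siINHBA level. It contributed 0.0813% of the summed loss.

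**Figure D2:**
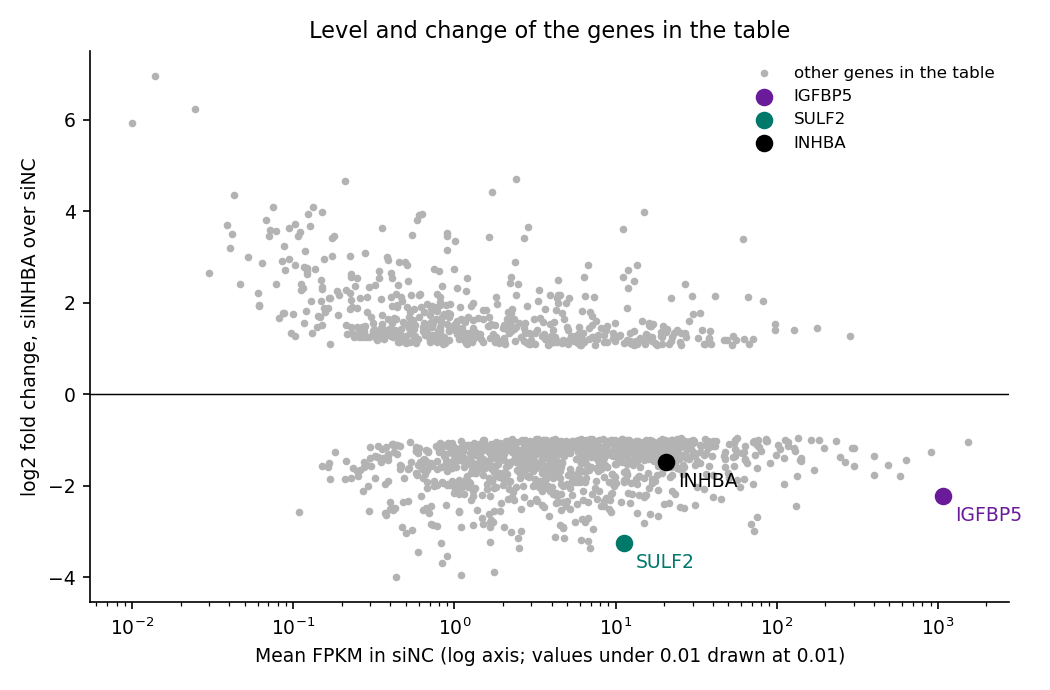
Log2 fold change of siINHBA over siNC (vertical axis) against mean FPKM in siNC (log horizontal axis) for the 1620 genes of the table, one point a gene. IGFBP5 sits at the right edge, second by siNC level, with a log2 fold change of -2.22, and SULF2 in the middle of the level range near the lower edge at -3.24. The empty band around 0 is the selection by the authors.

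Replicate spread also differed between the genes. The coefficient of variation (CV) of IGFBP5 in FPKM was 20.9% in siINHBA and 5.53% in siNC, against a median over the 1620 genes of 17.4% in siINHBA and 8.81% in siNC. SULF2 varied by 9.59% in siINHBA and 0.843% in siNC. In siNC 1.3% of the genes had a lower CV than SULF2. Counting error limits both SULF2 values. At 133, 169 and 185 counts in siINHBA it is a large part of such a spread. At 1419, 1506 and 1528 counts in siNC it is by itself larger than 0.843%, so that low value does not measure how even the libraries were.

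The change of SULF2 exceeded that of IGFBP5 by a log2 difference of -1.01 from the fit, a comparison within libraries that no scaling of the libraries can alter. Per length, the FPKM ratio of SULF2 to IGFBP5 was 0.00609, 0.00481 and 0.00499 in siINHBA libraries 1 to 3, against 0.0104, 0.00996 and 0.0112 in siNC libraries 1 to 3. The ratio was thus lower in every siINHBA library, although IGFBP5 remained far more abundant in both groups.

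Both genes are expressed by several cell types of the ovary. Of 13 markers of theca, stroma and smooth muscle, 2 had values, DES, a muscle intermediate filament, and PDGFRB, a receptor of pericytes and stroma. Their summed level was 16.1 to 21.6 FPKM in siINHBA and 63.0 to 65.9 FPKM in siNC, and the other 11 had no value here. The summed level of the 2 of 7 endothelial markers with values, VWF and KDR, was 0.117 to 0.213 FPKM in siINHBA and 0.569 to 0.679 FPKM in siNC. The 1 of 8 leukocyte markers, CSF1R, had 0.176 to 0.231 FPKM in siINHBA and 0.422 to 0.462 FPKM in siNC. KRT19 and UPK1B, 2 of 6 epithelial markers, summed to 12.5 to 12.7 FPKM in siINHBA and 31.9 to 33.6 FPKM in siNC. None of 6 oocyte markers had a value, and none of the markers with values was at 0 in any library. All of these markers with values were lower in siINHBA, beside 65.7% of the genes over the whole table. After TMM, a scaling that centres the libraries on the listed genes, VWF, CSF1R and UPK1B no longer passed as lower. Their log2 fold changes were then -0.29, -0.02 and -0.02 (edgeR adjusted p = 0.443, 0.954 and 0.945), while DES, PDGFRB, KDR and KRT19 still passed. The part of these cells in the lower IGFBP5 and SULF2 levels was not tested.

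The IGF system around IGFBP5 was read from a list of 30 genes, of which IGFBP5 and 4 others were in the table. Of those 4, 3 fell and 1 rose (edgeR quasi-likelihood test, adjusted p of at most 0.00039), with a median log2 fold change of -1.49, beside 65.7% lower and 34.3% higher genes and a median of -1.16 over the whole table. Scaled to the relative depth, all 1620 genes passed this edgeR test, with an adjusted p of at most 0.015. The authors had chosen them for change on the same libraries, so passing alone sets no gene apart. The 25 genes without a value include the ligands IGF1 and IGF2, the receptors IGF1R, IGF2R and INSR, and IGFBP1, IGFBP2, IGFBP4, IGFBP6 and IGFBP7, so nothing is said here about them.

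Among the binding proteins, IGFBP3, the main IGF carrier of blood, fell beside IGFBP5. IGFBP3 had 27.24, 21.31 and 22.94 FPKM in siINHBA libraries 1 to 3, against 66.35, 60.7 and 63.14 FPKM in siNC libraries 1 to 3, and fell by 1.41 on the log2 scale (SE 0.12, edgeR adjusted p = 2.8e-06). The groups did not overlap, but unlike IGFBP5, IGFBP3 was not lowest in siINHBA 1. Per length, IGFBP5 exceeded IGFBP3 by 6.3, 12.1 and 10.9 times in siINHBA libraries 1 to 3 and by 16.2, 18.6 and 16.0 times in siNC libraries 1 to 3. IGFBP5 was therefore the more abundant of the pair in every library, by a smaller margin in siINHBA.

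Transcripts of proteins that act on or with IGFBP5 were also in the table. PAPPA, a secreted metalloprotease that frees IGFs by cutting IGFBP4 and IGFBP5, had 0.82, 1.02 and 0.903 FPKM in siINHBA and 2.64, 2.7 and 2.84 FPKM in siNC, and it fell by 1.58 on the log2 scale (SE 0.13, edgeR adjusted p = 2.4e-06). IGFALS, the acid-labile subunit that joins IGF and IGFBP3 or IGFBP5 in a ternary complex, was low throughout, at 0.2 ± 0.0484 FPKM in siINHBA and 0.628 ± 0.0718 FPKM in siNC (SD, n = 3 each). Its log2 fold change was -1.63 (SE 0.25, edgeR adjusted p = 0.00011). IGFBP5, its protease PAPPA and its complex partner IGFALS were thus lower in the same libraries. ESM1, a small secreted proteoglycan annotated with IGF binding, rose by 1.49 on the log2 scale (SE 0.28, edgeR adjusted p = 0.00039), with counts of 49, 61 and 71 in siINHBA and 24, 15 and 23 in siNC.

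TMM, a scaling that centres the libraries on the listed genes, raised the median of all genes by 1.09 on the log2 scale. With it IGFBP5 was at -1.13 and SULF2 at -2.15, both still lower. The siRNA target INHBA was then at -0.41 (edgeR adjusted p = 0.0177), also still lower. IGFBP3 at -0.32 (edgeR adjusted p = 0.0413) and PAPPA at -0.49 (adjusted p = 0.0078) still passed, IGFALS at -0.54 (adjusted p = 0.105) did not, and ESM1 stayed higher. Under TMM 22.5% of the genes were called lower and 34.3% higher.

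The enzymes that build, sulphate and degrade heparan sulphate, a list of 41 genes, had SULF2 and 7 others in the table. Of those 7, 6 fell and 1 rose (edgeR adjusted p of at most 0.00128), with a median log2 fold change of -1.50, beside 65.7% lower and 34.3% higher genes and a median of -1.16 over the whole table. SULF1, the other extracellular sulphatase of this kind, had no value here.

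HS6ST2, a sulphotransferase that adds the 6-O sulphate which SULF2 removes, fell as well. It had 9.01, 7.78 and 6.62 FPKM in siINHBA libraries 1 to 3, against 30.84, 33.62 and 31.36 FPKM in siNC libraries 1 to 3. Its log2 fold change was -2.03 (SE 0.13, edgeR adjusted p = 7.7e-07). HS6ST1 and HS6ST3, which add the same sulphate, had no value here. The FPKM ratio of SULF2 to HS6ST2 was 0.116, 0.159 and 0.188 in siINHBA libraries 1 to 3 and 0.361, 0.335 and 0.361 in siNC libraries 1 to 3, lower in each siINHBA library.

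Enzymes acting earlier on the chain moved in both directions. XYLT2, a xylosyltransferase that starts the chain on its core protein, fell by 1.50 on the log2 scale (SE 0.13, edgeR adjusted p = 2.9e-06), with siINHBA 1 lowest at 6.89 FPKM. B3GAT3, which completes the linker between protein and chain, was the 1 gene that rose, with 54.51, 53.87 and 57.44 FPKM in siINHBA and 21.05, 21.43 and 19.52 FPKM in siNC. Its log2 fold change was 1.42 (SE 0.10, edgeR adjusted p = 1.2e-06). EXTL1, an exostosin-like glycosyltransferase, was scarce at 0.161 ± 0.0147 FPKM in siINHBA and 0.887 ± 0.135 FPKM in siNC, and fell by 2.42 (SE 0.24, edgeR adjusted p = 6.1e-06). Of the enzymes that modify the sugars, GLCE, the epimerase that turns glucuronic into iduronic acid, fell by 1.53 (SE 0.11, edgeR adjusted p = 1.5e-06).

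HS2ST1, which adds sulphate to iduronic acid, was the least even member, with 2.14, 4.7 and 2.71 FPKM in siINHBA and 7.54, 8.6 and 5.99 FPKM in siNC. It fell by 1.21 (SE 0.27, edgeR adjusted p = 0.00128). IDS, a lysosomal sulphatase of heparan and dermatan sulphate, fell by 1.03 (SE 0.12, edgeR adjusted p = 2.1e-05). With TMM 4 of the 7 passed as lower, namely XYLT2, EXTL1, GLCE and HS6ST2, and B3GAT3 as higher. HS2ST1, at -0.12, did not pass, and IDS changed sign to 0.05.

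**Figure D3:**
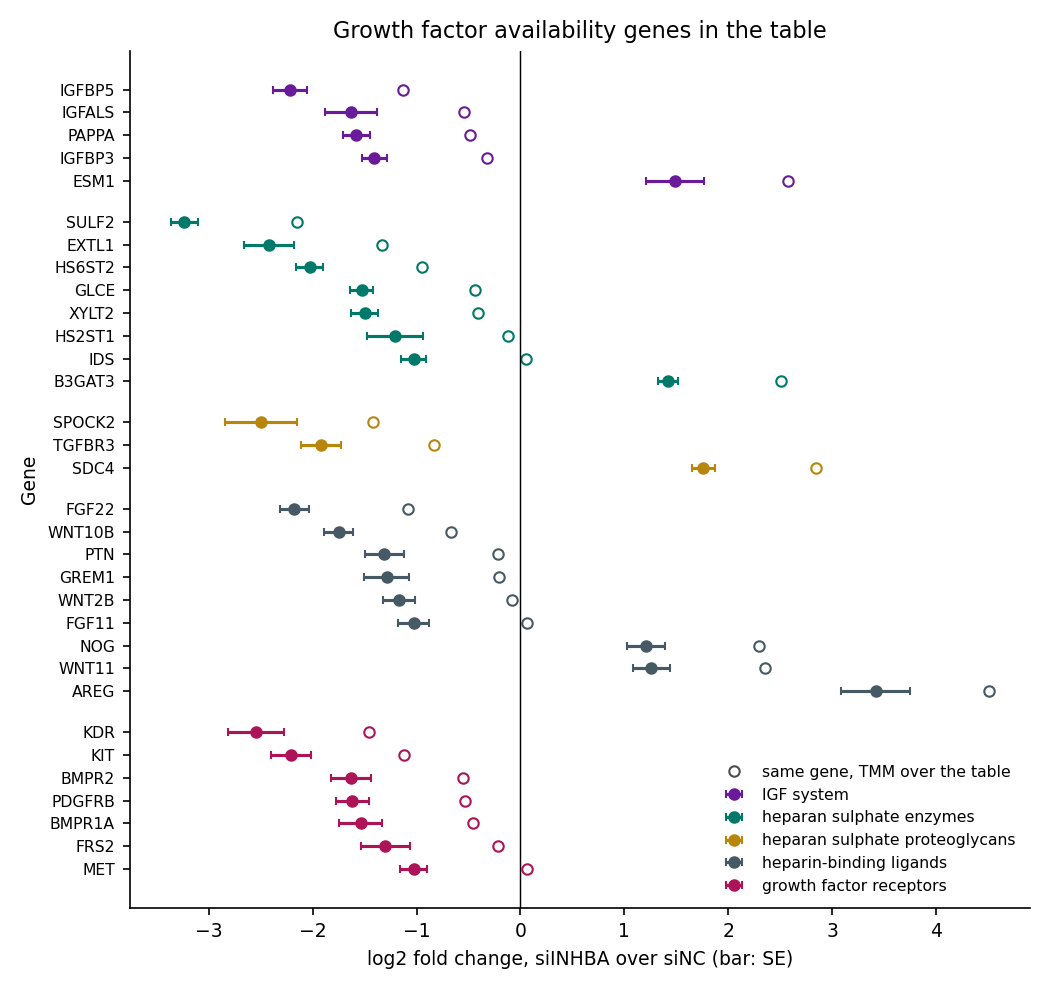
Log2 fold change of siINHBA over siNC for every gene of 5 lists that was in the table, grouped by list. Filled points are the values at recovered depth with their SE as bars, open points those after TMM scaling over the table, which moves every gene to the right by about 1.09. SULF2 at -3.24 is the lowest of its list and of all those shown. IDS, FGF11 and MET lie above 0 only after TMM.

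Of 20 heparan sulphate proteoglycans and similar carriers, whose chains SULF2 edits, 3 were in the table, 2 lower and 1 higher, where the whole table had 65.7% lower and 34.3% higher genes. All 3 calls held with TMM, under which 22.5% of all genes were lower and 34.3% higher. SDC4, a cell-surface syndecan, had 93.29, 106.06 and 109.56 FPKM in siINHBA and 30.67, 31.41 and 29.06 FPKM in siNC, and rose by 1.76 on the log2 scale (SE 0.11, edgeR adjusted p = 6.1e-07). It was the most abundant of the 3 by FPKM. TGFBR3, or betaglycan, a co-receptor of inhibin and TGF-beta, fell by 1.92 (SE 0.19, edgeR adjusted p = 6.2e-06). SPOCK2, a testican of the matrix, fell by 2.50 (SE 0.35, edgeR adjusted p = 5.7e-05), with counts of only 6, 17 and 25 in siINHBA against 88, 85 and 90 in siNC.

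Among 57 genes from families of ligands and antagonists that bind heparin or heparan sulphate, 9 were in the table, 6 lower and 3 higher. These counts were close to the shares of 65.7% lower and 34.3% higher over all genes, and the median was -1.17. FGF22, a fibroblast growth factor, fell to 5.16 ± 0.549 FPKM in siINHBA, against 23.4 ± 1.70 FPKM in siNC (SD, n = 3 each), at -2.18 on the log2 scale (SE 0.14, edgeR adjusted p = 7.7e-07). WNT10B fell by 1.75 and WNT2B by 1.17 on the log2 scale, and PTN, the heparin-binding factor pleiotrophin, by 1.31 (edgeR adjusted p = 2.2e-06, 2.8e-05 and 6e-05). AREG, an EGF-like factor of ovulation, rose by 3.42 (SE 0.33, edgeR adjusted p = 5.7e-06), with 114, 79 and 106 counts in siINHBA and 6, 9 and 12 in siNC. WNT11 rose by 1.26 (SE 0.18, edgeR adjusted p = 5.8e-05). The remaining 3 genes, named after their values were seen, were the BMP antagonists NOG and GREM1, at 1.21 and -1.29, and FGF11, at -1.03. With TMM FGF22 and WNT10B passed as lower and the 3 higher genes as higher, beside 22.5% lower and 34.3% higher genes over the table.

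Of 36 receptors and receptor adaptors for such ligands, 7 were in the table and all 7 fell, by a median log2 fold change of -1.62, beside 65.7% lower genes and a median of -1.16 over the whole table. FRS2, the adaptor that passes on signals of fibroblast growth factor receptors, had 1.28, 1.18 and 0.636 FPKM in siINHBA and 2.88, 2.72 and 2.78 FPKM in siNC, at -1.30 on the log2 scale (SE 0.24, edgeR adjusted p = 0.00035). The hepatocyte growth factor receptor MET fell by 1.03, the stem cell factor receptor KIT by 2.21 and PDGFRB by 1.62 on the log2 scale (edgeR adjusted p = 2.9e-05, 3e-06 and 7e-06). BMPR1A, BMPR2 and KDR, a receptor of VEGF with at most 14 counts per siINHBA library, had log2 fold changes of -1.54, -1.63 and -2.55 (edgeR adjusted p = 4.1e-05, 2e-05 and 9.9e-06). With TMM 4 of the 7 still passed as lower, beside 22.5% of all genes in the table. FRS2, BMPR1A and MET did not pass, and MET changed sign to 0.06. FGFR1 to FGFR4 had no value here.

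IGFBP5 is known as a transcript of atretic follicles, so 26 genes of follicle health and atresia were set beside it. Of these 9 were in the table, 6 lower and 3 higher, again close to the 65.7% and 34.3% of all genes, with a median log2 fold change of -1.29. The higher genes included SOD2, a mitochondrial superoxide dismutase, and BAX, a pro-apoptotic protein, at 1.77 and 1.21 on the log2 scale (edgeR adjusted p = 8.8e-07 and 4.3e-06). CYP11A1, the first enzyme of steroid synthesis, and INHA, the inhibin alpha subunit, fell, at -1.46 and -1.79 on the log2 scale (edgeR adjusted p = 2.1e-06 and 7.1e-06), as did the siRNA target INHBA at -1.49 (SE 0.14, edgeR adjusted p = 3.9e-06). NR5A1 and FOXO3, named after their values were seen, were at -1.30 and -1.13, and neither passed with TMM.

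The genes whose levels over the 6 libraries were most like each of the pair were found among 1354 others with a gene symbol and at least 10 counts in every library, by the root mean square difference in log2 level relative to the siNC mean. For IGFBP5 they included E2F7, a repressor of cell cycle genes, PLEKHG4, a guanine nucleotide exchange factor, PTPN5, a tyrosine phosphatase, and TMEM86A, a lysoplasmalogenase, with differences of 0.04 to 0.10. IGFBP5 stood at -2.61, -2.04 and -2.08 in siINHBA libraries 1 to 3 relative to the siNC mean, and E2F7 at -2.66, -2.07 and -2.08. E2F7 had only 20, 33 and 37 counts in those libraries, so its levels carry a counting error well above 0.04. Its place as the nearest of 1354 genes therefore says little. For SULF2 the nearest were MKI67, the proliferation marker, HJURP, a centromere chaperone, DNAJA4, a co-chaperone, ANGPT4, an angiopoietin, and TGM1, a transglutaminase, with differences of 0.12 to 0.26. MKI67 stood at -3.58, -3.17 and -3.35 in siINHBA libraries 1 to 3, beside -3.37, -3.15 and -3.20 for SULF2. The measure covers all 6 libraries, so a similar fall in these genes follows from how they were chosen. For IGFBP5 the same holds for the similar order of the libraries. For SULF2 the order was not shared by all. MKI67, HJURP and TGM1 were lowest in siINHBA 1 as SULF2 was, while DNAJA4 and ANGPT4 were lowest in siINHBA 2.

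**Figure D4:**
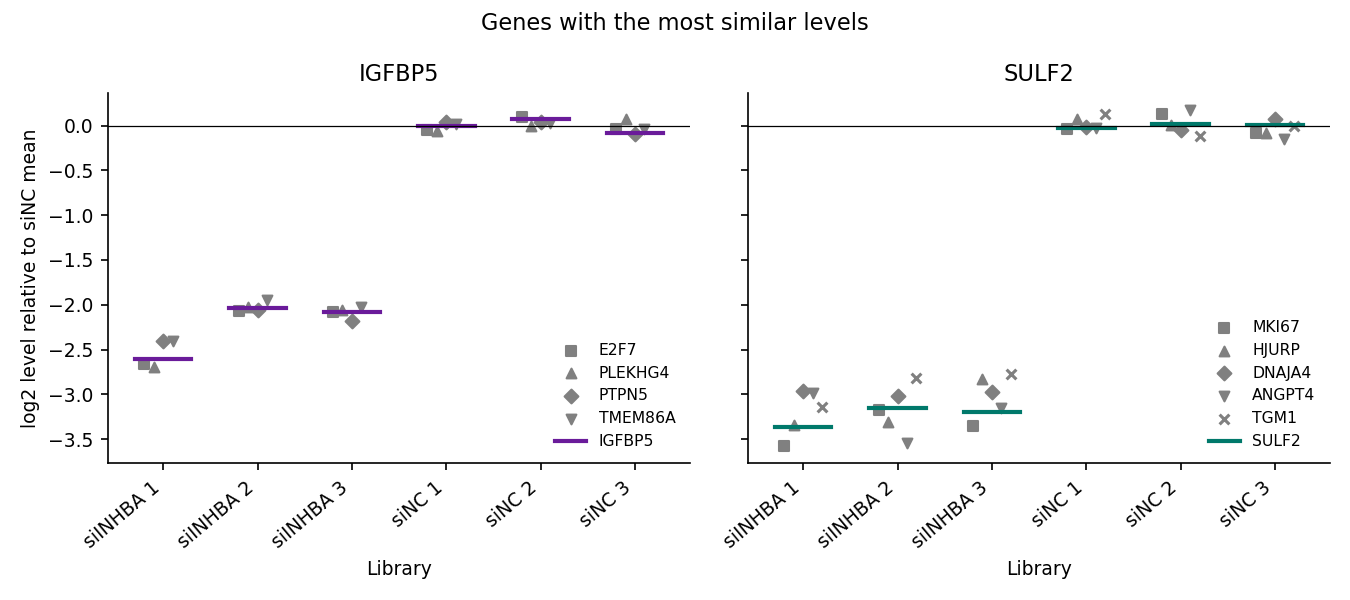
Log2 level relative to the siNC mean in each library for IGFBP5 (left panel) and SULF2 (right panel), drawn as coloured bars, and for the named genes most like each, drawn as grey symbols. siINHBA libraries are on the left of each panel. IGFBP5 and the genes beside it are lowest in siINHBA 1, which follows from their choice by likeness, and the genes chosen for SULF2 lie farther from it, at 0.12 to 0.26 against 0.04 to 0.10.

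Ratios of each gene to another of its own pathway do not depend on depth. The ratio of IGFBP5 to PAPPA in FPKM was 246 ± 33.7 in siINHBA and 393 ± 33.0 in siNC (SD, n = 3 each). That of SULF2 to GLCE was 0.405 ± 0.0496 in siINHBA and 1.34 ± 0.0526 in siNC. Both ratios were lower in siINHBA without overlap, so IGFBP5 was lower by a larger factor than PAPPA, and SULF2 than GLCE.

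**Figure D5:**
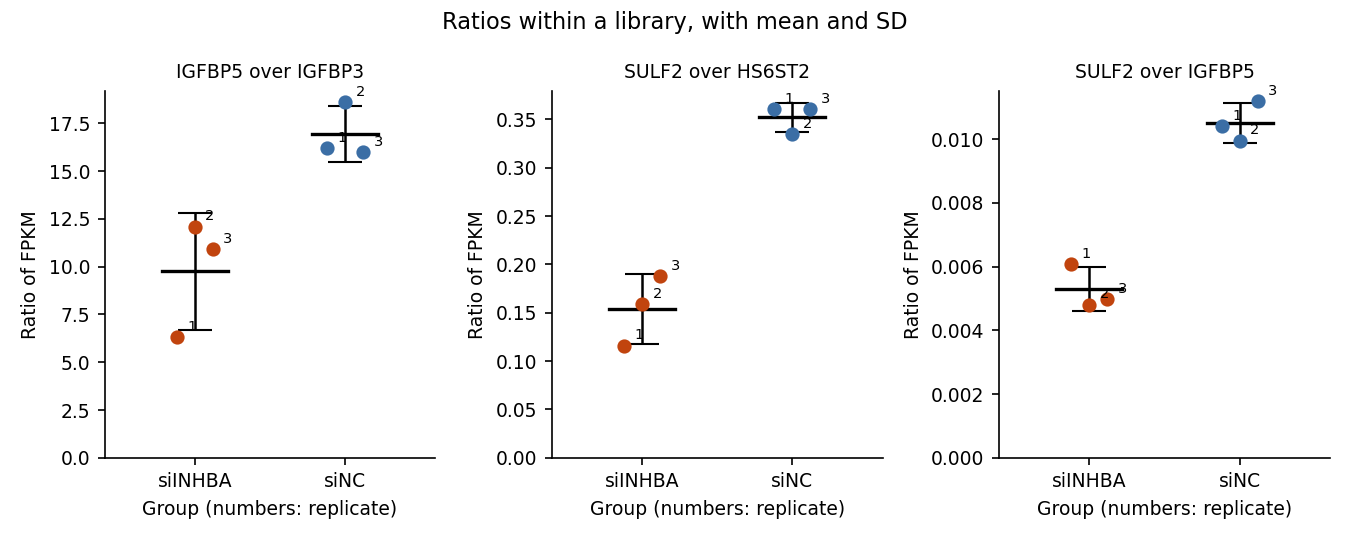
Ratio of FPKM values within each library for IGFBP5 to IGFBP3, SULF2 to HS6ST2 and SULF2 to IGFBP5, siINHBA on the left and siNC on the right. Points are libraries with their replicate number, the thick line is the mean and the bar the SD (n = 3). In each panel all siINHBA points lie below all siNC points.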

How the data were processed

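Poly(A) RNA was enriched with oligo(dT) beads and copied with random hexamers, per the labels' protocols. Per the file headers, the authors deposited raw read counts and FPKM per gene and library, and the FDR (adjusted p-value) and log2 fold change of their own comparison. The sources used here name no aligner, counter or genome build, so no coordinates are printed. Deposited FDR values reached 0.0090 at most, and absolute log2 fold changes began at 1.00. Of 1624 lines, 4 incomplete ones were dropped. Another deposited sheet gave keyword section membership only (unit other), and the remaining sheets were not used.

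Counts were fitted in R 4.3.3 by the quasi-likelihood functions of edgeR 4.0.16, after filterByExpr at a minimum count of 10, over all 1620 genes, with Benjamini-Hochberg adjustment and a threshold of 0.05. Library sizes were the recovered depths, the median ratio of count to FPKM, from the 702 genes above 200 counts throughout; TMM assumes that most genes do not change, which a table of called genes breaks. Count to FPKM ratios of IGFBP5, SULF2 and INHBA deviated from the recovered depth by -0.3% to 1.8%, -0.6% to 4.8% and -16.1% to 13.1%. The SE is the absolute log2 fold change over the square root of F. Because the authors chose every gene on the same 6 libraries, the adjusted p-values are recounts within that selection. Replicate counts differed by more than sampling noise (mean chi-square per gene 5.28 or more), so no library was a copy. The scripts were run on simulated counts in which only a minority of the genes changed. Here every gene had been chosen for change, so that run does not bear on the choice of scaling. Members, lists and scaling were chosen with earlier results of these data known. Named genes were INHBA, the pair, list members in the table (up to 8, otherwise the 6 with the smallest adjusted p) and the 5 most like each of the pair. Others, marked where they occur, and the markers were named after their values were seen. Some genes that the rule takes are left out. Alternatives were TMM, DESeq2 1.42.0, limma 3.58.1 on log2(FPKM + 1) or log2(FPKM + 0.1), filters, a replicate block and leaving out each library.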

Additional observations from a re-analysis of the deposited data

How the results depend on the processing

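The log2 fold change of IGFBP5 was -1.13 and that of SULF2 -2.15 both with TMM over the table and in DESeq2 scaled by its own size factors, which centre the table on its median gene; genes called lower then numbered 364 and 359. With TMM the ligand, receptor and atresia lists had 2, 4 and 3 lower genes, and with DESeq2 the ligand and atresia lists had 2 and 3. In limma on log2(FPKM + 1) SULF2 was at -2.49 and its difference from IGFBP5 at -0.23, since the pseudocount is about the size of the siINHBA level of SULF2. A minimum of 5 FPKM tested fewer genes and left 200 higher and 411 lower. The IGF list then had 2 lower and 0 higher, the proteoglycan list 0 lower, the ligand list 1 higher and the receptor list 2 lower; the genes missing from these counts were below the minimum and were not tested. Without each library in turn IGFBP5 lay between -2.32 and -2.06, SULF2 between -3.28 and -3.17 and their difference between -1.11 and -0.95, with 555 genes higher and 1063 to 1065 lower and every list count as with all libraries. Of 744 values of 55 other named genes, 713 kept direction and call, 25 no longer passed and 6 reversed, all of these under TMM or DESeq2's own size factors (IDS 0.05 and 0.05, FGF11 0.06 and 0.06, MET 0.06 and 0.05). Deviations from the group means correlated at 0.07, 0.19 and -0.01 between same-numbered libraries. Between differently numbered libraries the correlations ran from -0.14 to 0.1. The labels do not say whether the numbers mark pairs, and these values cannot tell. With a replicate block IGFBP5 was at -2.24, SULF2 at -3.24, and 555 genes were higher and 1065 lower.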

Other observations

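The authors' keyword sections, which were drawn up on these same samples, placed IGFBP5 under cAMP and SULF2 under Wnt and calcium. The cAMP section held 16 genes, 11 lower and 5 higher, and IGFBP5 ranked first by siNC FPKM and second from the lowest by log2 fold change. The Wnt section held 35 genes, 27 lower and 8 higher, and SULF2 had the lowest log2 fold change in it. In the calcium section, with 71 lower and 36 higher of 107 genes, SULF2 was second from the lowest. The shares lower in the 3 sections stand beside 65.7% over the table.

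In the RefSeq gene order of the sheep assembly ARS-UI_Ramb_v3.0, where 1376 of 1416 symbols of the table were found, the protein-coding genes directly beside IGFBP5 were IGFBP2 and TNP1, neither with a value here, and the next but one was TNS1, a focal adhesion protein, with a log2 fold change of -1.50. Both direct neighbours of SULF2 were in the table, NCOA3, a nuclear receptor coactivator, at -1.29 and PREX1, a Rac exchange factor, at -1.76. The next genes on either side, ZMYND8 and ARFGEF2, had no value here. Over all 1620 genes, 65.7% were lower and the median log2 fold change was -1.16. Lower levels beside IGFBP5 or SULF2 therefore do not set these regions apart, and a shared change of neighbouring genes was not tested.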
